A study of Homo sapiens with 4 samples.

Results

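The 32 genes described here carry and restrain WNT signalling, are switched on by it, or mark the stem cells of the intestinal crypt. The members are a fixed list of gene names. No value in these files served as a criterion for them, although earlier results of these data were known when they were chosen. Each of the 32 was found among the 19970 protein-coding genes of the RefSeq table used for positions. Open regions were taken as theirs when they overlapped the gene, or when the gene was the nearest protein-coding gene within 100 kb. This gave 363 regions, of 110021 assigned to any protein-coding gene in the same way.

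The study profiled open chromatin by ATAC-seq, in which the transposase Tn5 cuts and tags accessible DNA, in HCT116, an established human colorectal carcinoma line. Control cells (2 libraries) carried the empty pSin vector, and FOXD2 cells (2 libraries) carried pSin holding the whole FOXD2 coding sequence, which encodes a transcription factor of the forkhead family. Both were delivered by lentivirus and both populations were kept under 5 µg/mL puromycin, so selection and vector are shared by the groups. The labels do not tell whether the libraries of a group are separate cultures, and the spread within a group may therefore be technical.

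In WNT signalling, a WNT ligand binds a Frizzled receptor and an LRP5 or LRP6 co-receptor, and a complex built on AXIN, APC and GSK3B stops marking β-catenin for destruction. β-catenin then acts with TCF/LEF factors at target genes, several of which encode brakes on the same pathway. In the crypt the pathway maintains stem cells that carry LGR5, a receptor for R-spondins. HCT116 carries an activating mutation of CTNNB1, the β-catenin gene, which is known to keep the pathway active in this line.

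An interval is a peak in the deposited list of 1 library, and a region is a set of intervals from the 4 lists that overlap by at least 1 bp. Gained regions were present with FOXD2 in both replicates and absent from both controls. Lost regions were those of both controls that were absent from both FOXD2 libraries. Absence means that no interval passed the authors' peak caller, whose lowest −log10 q lay between 2.00 and 2.03 in the 4 lists. For regions present in all 4 libraries, here called shared, strength was the percentile of the −log10 q among all 39933 shared regions, ranked within each library. The −log10 q and the fold enrichment are the authors' own values for each interval. Over the shared regions of these genes the median −log10 q was 22.6 and 21.6 in the controls and 21.4 and 15.4 with FOXD2. The −log10 q values of FOXD2 replicate 2 were thus lower on the whole, so the groups are compared by percentile. Read depth is unknown. The lists held 77914 and 72950 intervals (controls) and 82923 and 64838 intervals (FOXD2). Of 10 colon epithelial marker genes, 8 had an open gene end in all 4 libraries, VIL1 in 2 and KRT20 in 3. The same held for 0 of 5 leukocyte, 1 of 5 endothelial (KDR) and 3 of 5 fibroblast markers (COL1A1, COL1A2 and PDGFRA).

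The promoter windows of RefSeq (GRCh38.p14, the build hg38) run from 250 bases before a gene's start to 50 after it, and 22 of the 32 genes matched one or more, 33 windows in all. LGR5, ASCL2, AXIN2, NKD1, ZNRF3, NOTUM, MSI1, CCND1, FZD7 and LRP6 are named only. Of the 33 windows, 26 were overlapped by a shared region. Shown first are the windows whose open region was not in every library, those of PTPRO, TNFRSF19 and RGMB. PTPRO (chr12:15322258-15322557, plus strand) was covered in control replicate 1 alone, TNFRSF19 (chr13:23570162-23570461, plus strand) in 3 libraries, and RGMB (chr5:98768382-98768681, plus strand) in control replicate 2 alone. A second TNFRSF19 start (chr13:23579110-23579409, plus strand) is shown beside the first because it was covered in all 4 libraries. SP5 (chr2:170715087-170715386, plus strand), a direct WNT target, and an inner start of PROM1 (chr4:16076069-16076368, minus strand) are shown because capitals mark the TCF/LEF letters ATCAAAG there, read as CTTTGAT on the strand shown. LRP5 (chr11:68312341-68312640, plus strand) was added after its values were seen, because open regions beside this start differed between the groups. All run 5′ to 3′ on the strand of the gene.
PTPRO: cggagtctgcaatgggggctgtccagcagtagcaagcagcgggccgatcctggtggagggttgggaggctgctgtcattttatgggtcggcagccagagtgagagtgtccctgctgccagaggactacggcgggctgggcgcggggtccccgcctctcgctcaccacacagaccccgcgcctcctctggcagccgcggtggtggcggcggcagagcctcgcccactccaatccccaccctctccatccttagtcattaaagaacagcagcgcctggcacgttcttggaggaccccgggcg
TNFRSF19 first start: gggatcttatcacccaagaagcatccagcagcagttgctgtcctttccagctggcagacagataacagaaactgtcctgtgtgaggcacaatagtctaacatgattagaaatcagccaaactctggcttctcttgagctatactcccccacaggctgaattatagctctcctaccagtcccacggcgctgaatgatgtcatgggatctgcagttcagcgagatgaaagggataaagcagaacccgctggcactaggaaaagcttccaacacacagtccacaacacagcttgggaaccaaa
TNFRSF19 second start: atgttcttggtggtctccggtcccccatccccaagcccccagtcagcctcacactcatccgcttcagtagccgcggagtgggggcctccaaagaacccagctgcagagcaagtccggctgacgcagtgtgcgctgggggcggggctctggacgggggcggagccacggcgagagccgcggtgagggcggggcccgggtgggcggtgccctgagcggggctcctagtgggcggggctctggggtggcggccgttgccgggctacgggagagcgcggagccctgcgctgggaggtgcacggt
RGMB first start: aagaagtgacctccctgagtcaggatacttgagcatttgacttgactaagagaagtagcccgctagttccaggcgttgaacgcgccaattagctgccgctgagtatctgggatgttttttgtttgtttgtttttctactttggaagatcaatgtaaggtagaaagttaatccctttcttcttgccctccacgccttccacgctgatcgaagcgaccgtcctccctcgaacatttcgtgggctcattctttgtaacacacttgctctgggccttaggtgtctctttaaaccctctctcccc
SP5: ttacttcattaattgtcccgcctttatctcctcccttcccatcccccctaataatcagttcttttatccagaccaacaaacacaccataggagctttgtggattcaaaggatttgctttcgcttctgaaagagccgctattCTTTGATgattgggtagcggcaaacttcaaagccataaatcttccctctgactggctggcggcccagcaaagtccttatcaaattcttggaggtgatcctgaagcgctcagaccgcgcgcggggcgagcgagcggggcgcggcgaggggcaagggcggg
PROM1 inner start: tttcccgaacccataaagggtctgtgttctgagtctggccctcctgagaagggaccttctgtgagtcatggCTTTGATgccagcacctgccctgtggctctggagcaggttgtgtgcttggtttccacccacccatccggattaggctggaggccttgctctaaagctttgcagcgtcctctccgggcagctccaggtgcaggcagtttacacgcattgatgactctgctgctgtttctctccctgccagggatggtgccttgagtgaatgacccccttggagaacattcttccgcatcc
LRP5: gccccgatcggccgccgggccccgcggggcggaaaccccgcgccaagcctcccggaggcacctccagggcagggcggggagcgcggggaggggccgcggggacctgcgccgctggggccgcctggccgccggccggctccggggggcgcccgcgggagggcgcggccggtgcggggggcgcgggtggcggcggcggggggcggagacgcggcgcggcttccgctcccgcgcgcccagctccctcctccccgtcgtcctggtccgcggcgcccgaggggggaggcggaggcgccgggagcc

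Both strands of every window were searched for ATCAAAG, a TCF/LEF motif, and for GTAAACA, a forkhead motif; no window of these genes held both. ATCAAAG was in 2 of the 33 windows of these genes and in 440 of 22131 windows of all protein-coding genes (1.99%). Its match lies 109 bases before the SP5 start, in a window that all 4 libraries covered, and 179 bases before the inner PROM1 start, in a window that no library covered. GTAAACA was in 0 of the 33 windows and in 631 of all 22131 (2.85%). A match is a string of letters and not a site of binding, and its absence says only that these letters are not in these windows.

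Nearly all of these genes had an open gene end in both groups. A gene end is open when a region lies within 1000 bp of either end of the gene. This held in all 4 libraries for 29 of the 32 genes, against 13211 of all 19970 protein-coding genes (66.2%). For 28 of the 29 it was 1 shared region. The exception was ASCL2, which encodes a stem cell transcription factor and is a WNT target. ASCL2 (chromosome 11, 2268498 to 2270588) had a region at 2268895 to 2269786 in both controls and FOXD2 replicate 1 (−log10 q 5.39, 13.3 and 8.48), and FOXD2 replicate 2 had only a separate interval at 2268544 to 2268743 (4.25). The other 3 genes were OLFM4, TNFRSF19 and PTPRO. Among all protein-coding genes, 93 (0.466%) had an end open with FOXD2 only, in both replicates, and 170 (0.851%) had one open in the 2 controls only. None of the 32 was in either set. Where the strand was known, the 5′ end by itself was open in all 4 libraries for 19 of 22 genes. The 66.2% above counts either end, and no share of all genes was taken for the 5′ end alone.

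**Figure D1:**
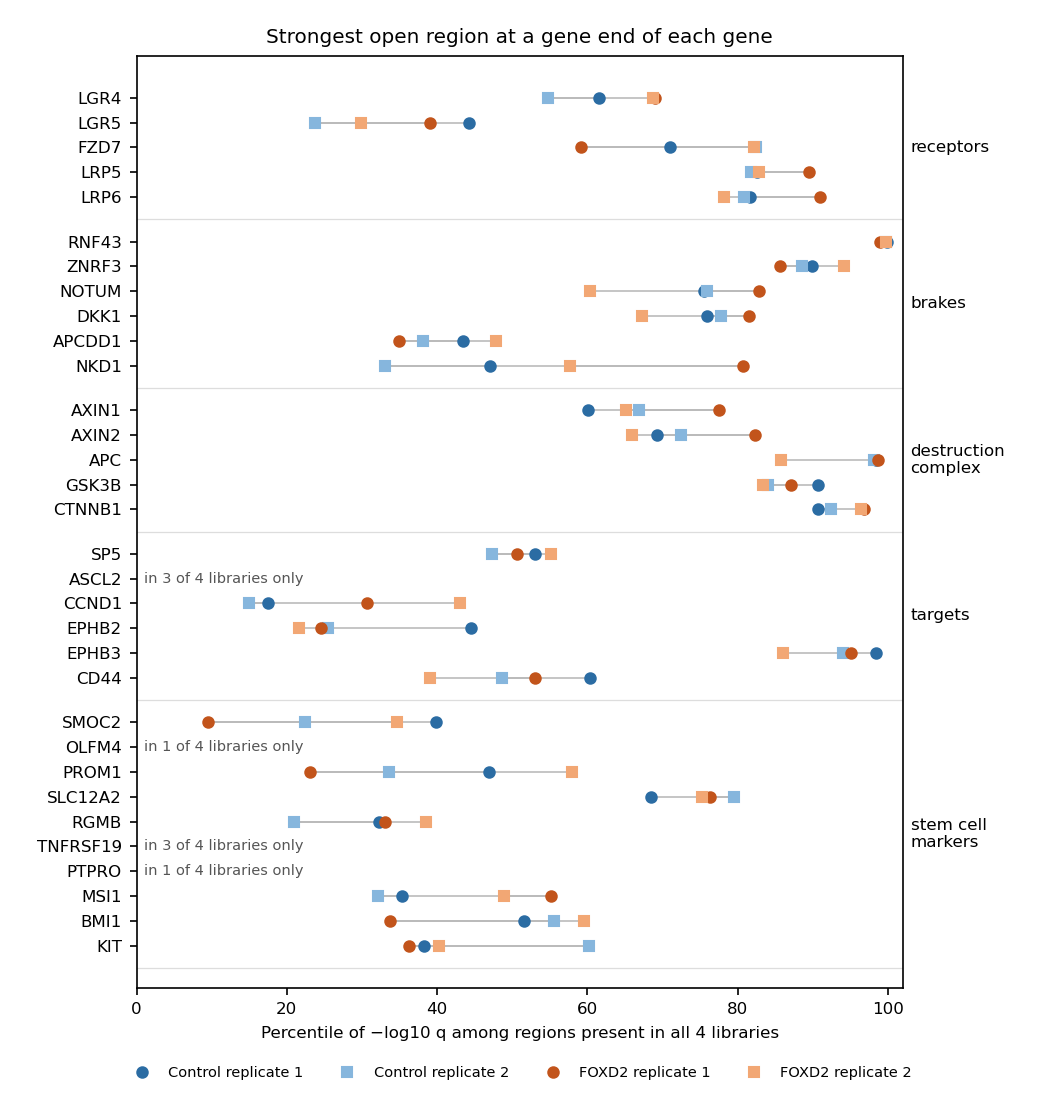
For each gene, grouped by role, the percentile of its strongest gene-end region among the regions present in all 4 libraries (x axis), with 1 point per library. Genes whose strongest gene-end region was missing from a library are marked in words. RNF43, EPHB3, APC and CTNNB1 sit at percentile 85.7 or above in every library. LGR4, LRP5, NKD1, CTNNB1, CCND1, RGMB and MSI1 have both FOXD2 points to the right of both control points. EPHB2 and, by a small margin (−0.43 points), RNF43 have both to the left. The RNF43 region plotted is the one shared with the end of SUPT4H1.

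Of the 363 regions, 12 were gained (3.31%, against 3.87% of all regions assigned to a gene) and 12 were lost (3.31%, against 3.78%). Both shares lay near the background. The gained regions belonged to 9 genes and the lost regions to 8, with LRP5, NKD1, RNF43 and TNFRSF19 in both sets and 19 genes in neither. Across protein-coding genes with any region, 17.9% had a gained and 18.3% a lost region, but these 32 genes had a median of 8 regions each against 4 for genes with a region. Gained and lost regions all lay away from gene ends, 10 and 8 of them inside the gene. Among gene-end regions of all genes, only 0.975% were gained and 2.12% lost. Inside genes away from ends, 5.92% of the regions of these genes were gained and 4.73% lost, against 4.7% and 4.23% for all genes. Outside genes the shares were 1.38% and 2.76%, against 4.07% and 3.94%. Compared as windows of 100 bp to each side of the summits, these genes had 429 regions. Of these, 21 were gained (4.9%, against 3.93% of all regions) and 16 lost (3.73%, against 4.06%). Leaving out 1 library relaxes the definition, for all regions as for these. Without control replicate 1 there were then 23 gained (7.19%, against 6.91% of all regions) and 37 lost (11.6%, against 14.4%). Without control replicate 2 there were 20 gained (5.87%, against 6.18%) and 59 lost (17.3%, against 17.0%). Dropping FOXD2 replicate 1 gave 42 gained (13.7%, against 12.0%) and 31 lost (10.1%, against 10.3%). Dropping FOXD2 replicate 2 gave 77 gained (22.7%, against 19.5%) and 17 lost (5.01%, against 5.93%).

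Shared regions numbered 105 (28.9%, against 34.1% of all assigned regions), and 162 regions (44.6%, against 39.5%) were in 1 library only. Of the single-library regions, FOXD2 replicates 1 and 2 had 64 and 28 (17.6% and 7.71% of all regions of these genes, against 13.9% and 6.21% of all assigned regions). Control replicates 1 and 2 had 46 and 24 (12.7% and 6.61%, against 11.1% and 8.32%). Of the 43 regions in 3 libraries, 19 were missing from FOXD2 replicate 2, which had the shortest list. These were 5.23% of all regions of these genes, near the 4.93% of all assigned regions with the same pattern. The regions of these genes were 0.318% and 0.284% of the assigned regions in the controls, against 0.328% and 0.308% with FOXD2. The shares of each library's regions overlap between the groups (difference 0.0170 points, two-sided exact permutation test over the libraries, p = 0.667). With 2 libraries against 2 the smallest two-sided exact p is 0.333, so no comparison of single values here could fall below that.

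**Figure D2:**
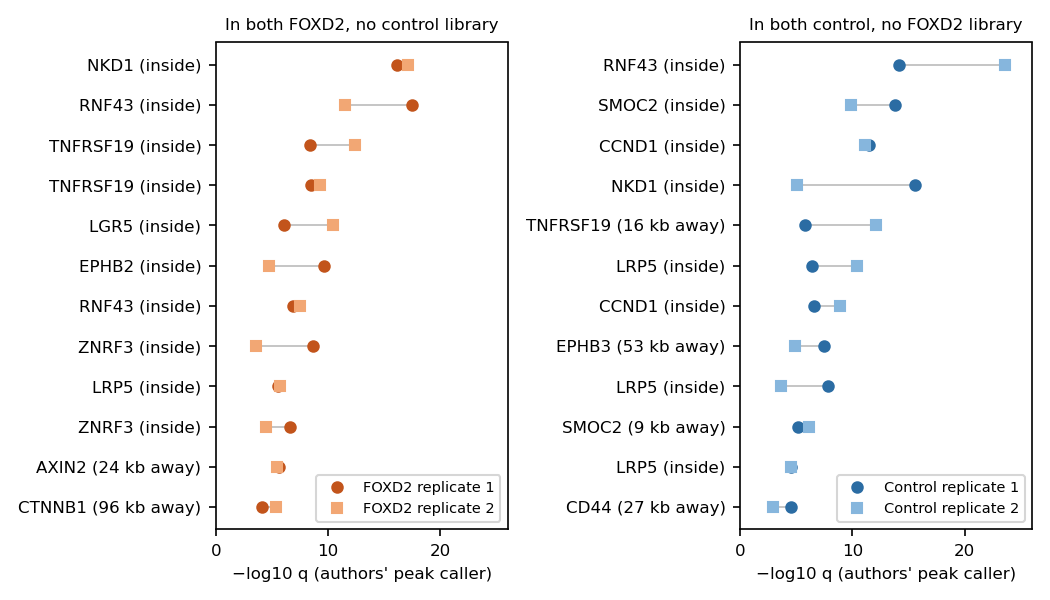
The −log10 q of each gained region in the 2 FOXD2 libraries (left) and of each lost region in the 2 control libraries (right), with its gene and its place. The strongest gained regions lie inside NKD1 and RNF43, and the strongest lost region lies inside RNF43.

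Among shared regions, 20 of 105 had both FOXD2 percentiles above both control percentiles (19.0%, against 18.8% of all shared regions assigned to a gene). A further 18 had both below (17.1%, against 19.6%). The median difference over the 105 was 0.09 percentile points, FOXD2 minus control, against −0.28 over all shared regions assigned to a gene. Gene ends held 35 shared regions, of which 7 ranked higher with FOXD2 (20.0%, against 16.4% of all shared gene-end regions) and 3 lower (8.57%, against 19.0%). This split depended on the measure. By fold enrichment the groups overlapped at CTNNB1 and CCND1 among the 7, and the DKK1 5′ end ranked higher. The 5′ ends of EPHB3 and RNF43, overlapping by −log10 q, ranked lower by fold enrichment. A difference of 25 points or more without overlap was seen in 6 regions in each direction, against 3.35% and 2.67% of all shared regions. With the authors' fold enrichment ranked in place of −log10 q, 14 of the 20 were again higher and 16 of the 18 again lower. The counts by fold were 16 higher (15.2%, against 19.6% of all shared regions) and 24 lower (22.9%, against 19.1%), with a median of −1.99 points against 0.01 over all shared regions. Leaving out 1 library relaxes this definition too. With control replicate 1 left out, 35 were higher (31.0%, against 33.2% of all shared regions) and 32 lower (28.3%, against 33.9%). With control replicate 2 left out, 35 were higher (29.9%, against 32.3%) and 38 lower (32.5%, against 34.4%). The counts were 40 (36.0%, against 35.7%) and 44 (39.6%, against 36.7%) with FOXD2 replicate 1 left out. They were 45 (35.7%, against 34.7%) and 49 (38.9%, against 35.8%) with FOXD2 replicate 2 left out. By −log10 q the counts in the 2 directions were therefore close, while by fold enrichment more regions ranked lower.

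**Figure D3:**
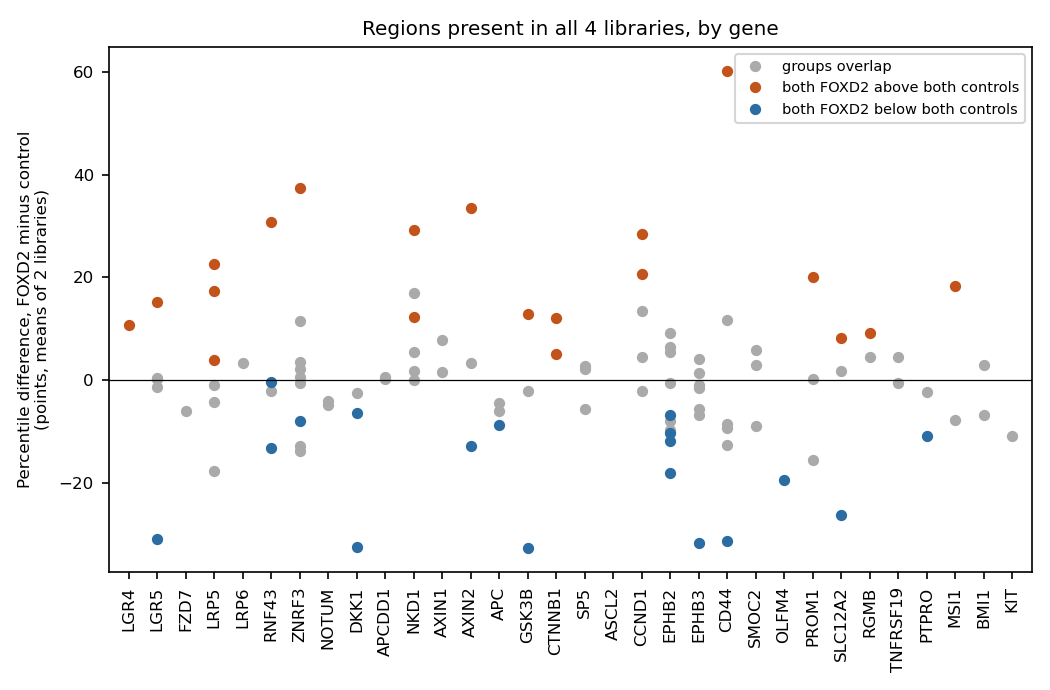
Percentile difference, FOXD2 minus control, of each of the 105 shared regions (y axis, points), arranged by gene. CD44 holds the largest difference, 60.23 points. Within LGR5, RNF43, ZNRF3, AXIN2, GSK3B, CD44 and SLC12A2 regions lie on both sides with no overlap between the groups, while the 4 such regions of EPHB2 all lie below 0.

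The receptors were LGR4, LGR5, FZD7, LRP5 and LRP6. They held 40 regions, of which 2 were gained (5.00%, against 3.87% of all regions assigned to a gene) and 3 lost (7.50%, against 3.78%). Of their 14 shared regions, 5 ranked higher (35.7%, against 18.8%) and 1 lower (7.14%, against 19.6%). The same background shares apply to each role below. LRP5, a WNT co-receptor (chromosome 11, 68298412 to 68449275), held most of this with 24 regions, 1 gained and 3 lost. Around the start shown above, the region at 68312128 to 68312683 had −log10 q of 10.6 and 19.3 in the controls (replicate 1 first, here and below) against 26.6 and 15.2 with FOXD2. The −log10 q values overlap, but the percentiles (15.3 and 39.2, then 57.0 and 42.6) do not, a difference of 22.55 points, or 11.58 by fold enrichment. The next region, 195 bp further on at 68312879 to 68313523, was lost (6.38 and 10.4 in the controls), though not when compared as summit windows. The region after it, at 68314651 to 68315296, ranked higher with FOXD2 by 17.31 points (12.1 and 9.71, then 14.8 and 14.0), or by 6.59 by fold enrichment.

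The other gained and lost regions of LRP5 were weak. Its gained region at 68326946 to 68327220 had −log10 q of 5.53 and 5.67. Its other lost regions, at 68353327 to 68354032 and 68411403 to 68411849, had 7.82 and 3.67, and 4.50 and 4.49. At the outermost annotated start of LRP5 a shared region at 68297574 to 68298193 was strong throughout (59.5, 53.9, 61.6 and 38.6 in the order above), and its percentiles of 82.6 and 81.8 against 89.5 and 82.8 did not overlap (3.94 points). Compared as summit windows, 2 of the 3 lost LRP5 regions were no longer lost. They were the one beside the start shown above, at 68312879 to 68313523, and the one at 68353327 to 68354032. The summits of the controls lay 335 bp apart in the former and 252 bp apart in the latter. With intervals of −log10 q 5 or more, the lost regions at 68353327 to 68354032 and 68411403 to 68411849 were not kept. None of the 3 was therefore kept under both of these alternatives. With lists of equal length, 2 of the 3 were not kept.

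**Figure D4:**
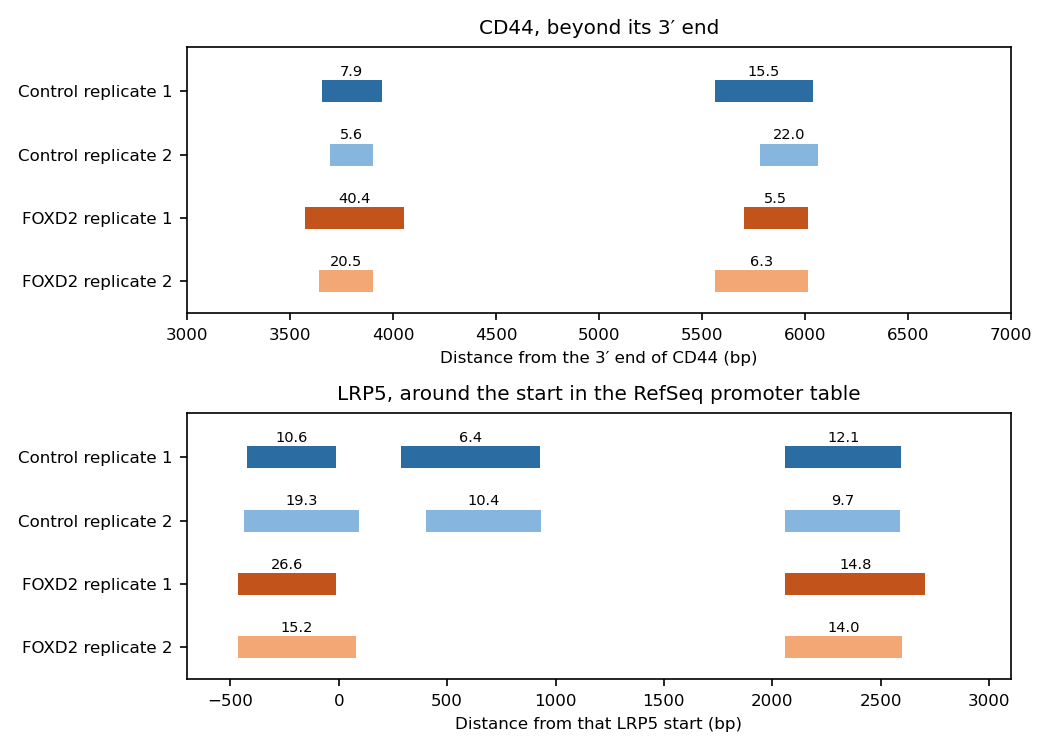
Intervals of each library beyond the 3′ end of CD44 (upper panel) and around the LRP5 start shown above (lower panel), by distance in bp; the number over each interval is its −log10 q. At CD44 the nearer region is stronger and the farther one weaker in both FOXD2 libraries, and at LRP5 the middle interval is in the controls alone.

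LGR5 (chromosome 12, 71439129 to 71586310) kept its gene-end region in all libraries, with −log10 q of 22.6 and 13.0 in the controls against 18.0 and 11.5 with FOXD2. Outside its lower-coordinate end, 46221 bp away at 71392456 to 71392908, a shared region stood at 33.9 and 29.7 in the controls against 9.41 and 15.4, a difference of −31.00 points. A region inside the gene at 71469272 to 71470141 lay the other way (33.9 and 24.9, then 36.9 and 28.3, or 15.12 points). Its percentiles (61.6 and 50.4, then 71.3 and 70.9) did not overlap, although the −log10 q values did. By fold enrichment the groups overlapped and the difference was 7.60 points. LGR5 also gained a region at 71557515 to 71557810 (6.03 and 10.4), 143 bp from a shared one. The related receptor LGR4 had 2 regions in all, and the one at its 5′ end stood at 34.0 and 27.4, then 34.9 and 26.8 (10.70 points). The groups did not overlap in percentile at LGR4, although they did in −log10 q. LRP6, the other co-receptor, had its only region at a gene end (57.7, 52.5, 64.9 and 34.0), and FZD7, a Frizzled receptor, had 1 shared region, also at a gene end (42.8, 54.8, 27.9 and 37.9). Both overlapped between the groups (3.35 and −5.96 points).

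The brakes were RNF43, ZNRF3, NOTUM, DKK1, APCDD1 and NKD1. They held 76 regions, of which 5 were gained (6.58%, against 3.87%) and 2 lost (2.63%, against 3.78%). Of their 26 shared regions, 4 ranked higher (15.4%, against 18.8%) and 5 lower (19.2%, against 19.6%). RNF43 encodes a ubiquitin ligase that removes Frizzled receptors from the cell surface (chromosome 17, 58352500 to 58417534). Neighbouring regions inside RNF43 differed in different directions. From low to high coordinate, the region at 58387800 to 58388223 was gained (17.5 and 11.5). The next, at 58391402 to 58391976, stood at 60.3 and 73.3 in the controls against 37.0 and 32.5 (−13.20 points). By fold enrichment (10.1 and 10.9, then 5.48 and 5.60) that difference was −45.51 points. After it, the region at 58394467 to 58395064 stood at 27.1 and 13.3 against 37.3 and 25.8 (30.85 points). The groups overlapped there in −log10 q and when fold enrichment was ranked (12.16 points). They did not overlap in percentile of −log10 q (52 and 25, then 71.7 and 67). An interval at 58400030 to 58400311 followed in FOXD2 replicate 1 alone (15.3). Next to it, the region at 58402083 to 58402447 was the strongest lost region of all 32 genes (14.1 and 23.6 in the controls).

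The ends of RNF43 were among the strongest regions in every library. The 5′ end stood at 105, 89.7, 84.8 and 52.5 in the order above, and its groups overlapped in percentile (−2.14 points), but not by fold enrichment (−8.25 points). The other end shares its region with the end of SUPT4H1, a transcription elongation factor gene, and held the strongest region of the set (153, 136, 100 and 93.0, all at or above percentile 99.0). Both FOXD2 libraries ranked below both controls there, a difference of −0.43 points by −log10 q and of −10.98 points by fold enrichment (15.3 and 15.7, then 10.4 and 11.0). A second gained region of RNF43, at 58377327 to 58377639, was weaker (6.86 and 7.46).

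ZNRF3 encodes the partner ligase of RNF43 (chromosome 22, 28883572 to 29057488). Inside it a shared region at 28923767 to 28924268 stood at 31.6 and 12.9 in the controls and 30.5 and 55.6 with FOXD2 (37.50 points). Control replicate 1 and FOXD2 replicate 1 were close there, and by fold enrichment the groups overlapped. The difference was 18.70 points without control replicate 2 and 20.82 points without FOXD2 replicate 2. ZNRF3 also gained 2 weak regions, at 28931700 to 28932088 (8.63 and 3.57) and at 28979413 to 28979790 (6.61 and 4.48). Its gene-end region was strong in all libraries, between 54.5 and 75.1.

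NKD1 encodes an inhibitor that acts on Dishevelled and is a common WNT target (chromosome 16, 50548396 to 50649249). The region across its lower-coordinate end, at 50547379 to 50549354, stood at 24.1 and 16.6 in the controls against 47.2 and 20.9 with FOXD2 (29.17 points). FOXD2 replicate 2 was below control replicate 1 in −log10 q and above it in percentile (57.7 against 47.1). Of the shared gene-end regions of the 32 genes, this one had the largest difference towards FOXD2. Inside NKD1 a region at 50616794 to 50617777 was gained, with the highest mean −log10 q of any gained region here (16.2 and 17.1), and one at 50603755 to 50604220 was lost (15.6 and 5.04).

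DKK1 encodes a secreted protein that blocks the LRP co-receptors (chromosome 10, 52314281 to 52317657). Its 5′ end stood at 48.8, 48.1, 48.3 and 25.9, with overlapping groups (−2.45 points). By fold enrichment (8.11 and 7.66, then 9.50 and 7.61) both FOXD2 libraries ranked above both controls there, by 17.67 points. Beyond its 3′ end, 1378 bp away at 52319035 to 52319486, a region stood at 17.7 and 21.8 in the controls against 6.29 and 6.53 with FOXD2. This difference, −32.50 points, was among the largest in that direction, and it was −11.68 points when fold enrichment was ranked. NOTUM, which encodes a secreted enzyme that inactivates WNT ligands, and APCDD1, which encodes a membrane-bound inhibitor, had 2 shared regions each, all with overlapping groups and differences between −4.91 and 0.57 points. Their strongest gene-end regions stood at 48.4, 45.7, 50.3 and 22.2 for NOTUM and at 22.2, 18.8, 16.5 and 17.0 for APCDD1. For APCDD1 this was the 3′ end, and its 5′ end was weaker, at 9.56, 9.91, 9.09 and 8.07.

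The destruction complex and its substrate were represented by AXIN1, AXIN2, APC, GSK3B and CTNNB1. They held 53 regions, with 2 gained (3.77%, against 3.87%) and 0 lost (against 3.78%). Of their 13 shared regions, 4 ranked higher (30.8%, against 18.8%) and 3 lower (23.1%, against 19.6%). The strongest gene-end regions of these 5 genes were at percentile 60.1 or above in every library. CTNNB1 (chromosome 3, 41199505 to 41240443) stood at 77.1 and 76.4 in the controls and 83.5 and 62.5 with FOXD2, where the percentiles were 90.7 and 92.4 against 96.8 and 96.4. That difference of 5.01 points had no overlap, yet FOXD2 replicate 2 had the lowest −log10 q of the 4, and by fold enrichment the groups overlapped. A CTNNB1 gained region, 95821 bp away at 41103339 to 41103684, was weak (4.14 and 5.37).

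AXIN2, a scaffold of the complex and a widely used WNT target (chromosome 17, 65528563 to 65561648), had 25 regions, of which 16 were in 1 library only. Its gene end at 65560304 to 65561868 stood at 40.8, 41.7, 49.5 and 25.2, with overlapping groups. Outside the gene, 26340 bp beyond that end at 65587988 to 65589375, a region stood at 23.6 and 23.5 in the controls and 48.8 and 34.6 with FOXD2 (33.50 points). The controls were nearly equal and both FOXD2 libraries were higher, as they also were in fold enrichment (6.21 and 6.56, then 7.54 and 7.22). On the other side of the gene a weak region at 65499875 to 65500346 ranked lower with FOXD2 (15.2 and 6.74, then 5.19 and 5.64; −12.93 points), with overlapping groups by fold enrichment. A region at 65504287 to 65504566 was gained (5.60 and 5.47).

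GSK3B encodes the kinase of the complex (chromosome 3, 119821321 to 120094447). Its 5′ end overlapped between groups (77.2, 57.7, 57.3 and 39.3). At its 3′ end a small region at 119821021 to 119821350 stood at 17.4 and 27.4 in the controls against 6.74 and 8.35 with FOXD2. The difference was −32.74 points, close to those at DKK1 (−32.50) and EPHB3 (−31.66), and −23.56 points without control replicate 2. Fold enrichment separated the groups in the same direction (8.33 and 10.4, then 4.79 and 5.56; −40.83 points). APC (chromosome 5, 112707498 to 112846239) had 2 starts with strong regions. The outer one overlapped between groups (112, 103, 96.2 and 41.9), and the inner one, at 112737498 to 112738179, stood at 64.4 and 75.9 against 42.9 and 38.5 (−8.86 points, or −2.53 by fold enrichment). AXIN1, the other scaffold gene, had 2 shared regions with overlapping groups, the one at its 5′ end at 32.7, 36.5, 43.1 and 24.7.

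Of the target genes SP5, ASCL2, CCND1, EPHB2, EPHB3 and CD44, 90 regions were found, with 1 gained (1.11%, against 3.87%) and 4 lost (4.44%, against 3.78%). Each gene was given 1 role. AXIN2 and NKD1, which are also WNT targets and had 1 gained region each, were counted above, so these shares do not cover all targets. Among their 31 shared regions, 3 ranked higher (9.68%, against 18.8%) and 6 lower (19.4%, against 19.6%). CD44, which encodes a hyaluronan receptor (chromosome 11, 35139171 to 35232402), held the largest difference of the whole set. The region 3575 bp beyond its 3′ end, at 35235977 to 35236457, stood at 7.91 and 5.59 in the controls and 40.4 and 20.5 with FOXD2. In percentiles this was 7.7 and 3.5 against 74.9 and 56.8, a difference of 60.23 points. Fold enrichment there was 4.88 and 4.17 against 9.35 and 6.37.

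Next to it, after a gap of 1508 bp, the region at 35237966 to 35238464 lay the other way. It stood at 15.5 and 22.0 in the controls and 5.48 and 6.29 with FOXD2 (−31.31 points). CD44 was the only one of the 32 genes with a region past 25 points in each direction. The CD44 promoter overlapped between groups (33.1, 24.0, 24.3 and 14.1), and the single lost CD44 region, 27360 bp away, was weak (4.54 and 2.89).

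CCND1 encodes cyclin D1, which drives entry into the cell cycle (chromosome 11, 69641156 to 69654474). Inside it 2 regions were lost, at 69643291 to 69643523 (6.58 and 8.86) and at 69644301 to 69644819 (11.4 and 11.1). These intervals had low fold enrichment, between 2.2 and 2.67. The region at its lower-coordinate end was in control replicate 1 and both FOXD2 libraries (5.95, 10.6 and 10.4). At its other end a region at 69654483 to 69655855 stood at 11.2 and 9.78 against 15.0 and 15.4 (20.66 points), but by fold enrichment the groups overlapped. Farther out, 52423 bp away at 69588356 to 69588733, a region stood at 8.11 and 12.0 against 24.7 and 12.3 (28.52 points).

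EPHB2 and EPHB3 encode ephrin receptors that position cells along the crypt. EPHB2 (chromosome 1, 22710838 to 22921500) had 10 shared regions, of which 4 ranked lower and 0 higher, and 1 weak gained region at 22750338 to 22750610 (9.60 and 4.76). Its promoter was among the 4, at 22.7 and 13.6 in the controls against 12.8 and 9.46 with FOXD2 (−11.91 points). The margin there was small, since percentiles of 25.5 in control replicate 2 and 24.6 in FOXD2 replicate 1 nearly met. The largest difference, at 22780741 to 22781037 inside the gene, was −18.06 points (28.1 and 12.1, then 11.7 and 8.66). Control replicate 1 stood apart there, and percentiles of 21.7 in control replicate 2 and 21.2 in FOXD2 replicate 1 nearly met. The groups stood farther apart at 22930077 to 22930816, 8577 bp beyond the 3′ end, with 52.3 and 42.7 against 33.6 and 24.0 (−10.24 points).

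EPHB3 (chromosome 3, 184561785 to 184582408) had a promoter near the top of every list (112, 81.0, 76.5 and 42.3), with overlapping groups (−5.65 points), though not by fold enrichment (−11.10 points). A region 20271 bp before its 5′ end, at 184541111 to 184541514, stood at 30.3 and 26.1 against 13.4 and 9.25 (−31.66 points). Its lost region lay 52841 bp away (7.49 and 4.88). SP5, a WNT-induced transcription factor gene, had 3 shared regions, all overlapping between groups. The one over the promoter shown above stood at 16.8 and 19.0 against 21.7 and 10.9, and the strongest, just before it, at 27.7 and 23.3 against 23.1 and 19.8.

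The stem cell markers SMOC2, OLFM4, PROM1, SLC12A2, RGMB, TNFRSF19, PTPRO, MSI1, BMI1 and KIT held 104 regions. Of these, 2 were gained (1.92%, against 3.87%), 3 were lost (2.88%, against 3.78%) and 21 were shared (20.2%, against 34.1%). Among the shared, 4 ranked higher (19.0%, against 18.8%) and 3 lower (14.3%, against 19.6%). Several were sparsely open. SMOC2, which encodes a secreted matrix protein (chromosome 6, 168441184 to 168667992), had the most regions of any gene here, 39, but 26 were in 1 library only and 3 were shared. Its 2 lost regions, at 168524787 to 168525040 and 168676842 to 168677248, had −log10 q of 13.8 and 9.91, and 5.18 and 6.13. Its promoter overlapped between groups (20.4, 12.4, 7.85 and 12.9).

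OLFM4, which encodes a secreted glycoprotein of crypt stem cells (chromosome 13, 53028813 to 53052057), had no region inside the gene. Near its 5′ end only FOXD2 replicate 1 had an interval, at −log10 q 2.68. Its single shared region, 60331 bp away at 52968012 to 52968482, stood at 33.9 and 27.4 in the controls against 16.1 and 15.4 with FOXD2 (−19.52 points). PTPRO, a receptor phosphatase gene, had a region at its 5′ end in control replicate 1 alone (11.1). A shared PTPRO region inside the gene at 15590145 to 15590724 stood at 37.7 and 37.8 against 25.1 and 21.1 (−10.89 points, or −5.31 by fold enrichment).

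TNFRSF19, which encodes a receptor of the tumour necrosis factor family (chromosome 13, 23570412 to 23676093), differed between its starts. The first start shown above had 5.26 in control replicate 2 and 13.0 and 3.02 in the FOXD2 libraries, with nothing in control replicate 1. The second start was strongly open in all 4 (101, 69.0, 97.5 and 64.4). Inside TNFRSF19, regions at 23599458 to 23599907 (8.46 and 9.30) and 23621143 to 23621604 (8.34 and 12.4) were gained. A region 16084 bp before its 5′ end was lost (5.73 and 12.1).

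Among the remaining markers, MSI1, an RNA-binding protein gene, had the largest gene-end difference. It stood at 18.3 and 16.3 in the controls and 25.5 and 17.4 with FOXD2 (18.33 points). The −log10 q values overlap, but the percentiles (35.3 and 32.1, then 55.2 and 48.9) do not. PROM1, which encodes the surface protein CD133, had a higher-ranking region inside the gene at 16067255 to 16068182 (15.6 and 15.4, then 22.3 and 17.9; 20.13 points, or 10.20 by fold enrichment), while its 5′ end overlapped (24.0, 16.9, 12.4 and 21.0). RGMB, a BMP co-receptor gene, ranked slightly higher at its 5′ end (17.0 and 11.9, then 15.8 and 13.9; 9.15 points, or 5.35 by fold enrichment), with overlapping −log10 q. SLC12A2, an ion co-transporter gene, had 1 region each way, the lower one 44746 bp away at 128038616 to 128039020 (19.6 and 20.5, then 8.72 and 8.10; −26.26 points). BMI1, a Polycomb gene whose 5′ region is shared with the end of COMMD3, and KIT, a receptor tyrosine kinase gene, overlapped between groups in all their shared regions. The 5′ ends stood at 26.7, 27.9, 16.0 and 21.8 for BMI1, at 19.7, 31.1, 17.0 and 14.4 for KIT, and at 40.2, 50.4, 41.9 and 31.4 for SLC12A2, whose 5′ end overlapped too.

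By place, of the 363 regions, 49 lay at gene ends, 169 inside genes away from ends and 145 outside genes, up to 99725 bp away. Shared regions were wider (median 771 bp) than gained (362 bp) or lost regions (386 bp). These are widths of merged intervals, from 4 libraries for shared regions and from 2 for gained or lost ones. The definitions therefore favour wider shared regions in advance. In 61 of the 105 shared regions the summits of the 4 libraries lay within 100 bp of each other. Gained regions were within 1000 bp of a shared region in 2 of 12 cases (LGR5 and EPHB2) and lost regions in 2 of 12 (both LRP5), against 6.93% and 10.7% of all gained and lost regions.

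A further 69 genes of the pathway, which are not among the 32, had 636 regions, of which 20 were gained (3.14%, against 3.87% of all assigned regions) and 30 lost (4.72%, against 3.78%). Of their 231 shared regions, 47 ranked higher (20.3%, against 18.8%) and 45 lower (19.5%, against 19.6%). A gene end was open in all 4 libraries for 53 of the 69, against 66.2% of all protein-coding genes. The same background shares apply to each role. Ligands and secretion factors had 4 gained (2.88%) and 6 lost (4.32%) of 139 regions. R-spondins and receptors had 6 (4.26%) and 4 (2.84%) of 141, and secreted inhibitors 3 (4.92%) and 2 (3.28%) of 61. Cytoplasmic components had 0 and 5 (5.1%) of 98, and nuclear factors 7 (3.55%) and 13 (6.6%) of 197. TCF7L2, the main TCF factor gene of the gut, had 40 regions, with 6 lost and 0 gained. Of shared regions, the ligands had 11 higher (19%) and 10 lower (17.2%) of 58. The R-spondins and receptors had 9 (17.3%) and 7 (13.5%) of 52, and the cytoplasmic components 9 (22.5%) and 7 (17.5%) of 40. The nuclear factors had 17 (25.8%) and 14 (21.2%) of 66. The secreted inhibitors had 1 (6.67%, against 18.8%) and 7 (46.7%, against 19.6%) of 15. TCF7L2 and the split of the inhibitors were singled out after their values were seen.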

How the data were processed

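The 4 ATAC-seq libraries were analysed from the authors' deposited peak lists, 1 per library. MACS2 2.2.7.1, Bowtie2 2.3.4.1, bedtools, Picard, cutadapt 3.4 and the build hg38 are named per the submitters' processing notes. For their settings, and for any Tn5 shift of read ends, the sources used here give nothing. The deposited values are the authors' fold enrichment at the summit (a ratio), −log10 p, −log10 q and a whole-number score; the score and −log10 p were not used.

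Intervals on chromosomes 1 to 22 and X were kept (0.208% to 0.251% of each list was left out) and merged where they overlapped by 1 bp or more, with Python 3.11.15 and pandas 2.3.3. Gene positions were those of RefSeq GRCh38.p14, without exons; strand came from its promoter windows. All gained and lost regions, the strongest gene-end region of each gene and the 3 largest differences in each direction among shared regions without overlap were to be named; others were named after their values were seen. Members and lists were chosen with earlier results of these data known. The functions were tested on simulated lists. Regions are not replicates, so counts carry no p-value.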

Additional observations from a re-analysis of the deposited data

How the results depend on the processing

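The labels number the replicates 1 and 2 in both groups and do not say that a number marks a shared batch. With the replicate block, an alternative chosen after seeing the data, the share of each library's regions at these genes differed by 0.0104 and 0.0237 points within the pairs (mean 0.017, exact test p = 0.5, the smallest that 2 pairs allow). The counts and the median come from no test. The alternatives were intervals of −log10 q 5 or more, summit windows of 100 bp, lists of equal length, a distance limit of 20 kb, the nearest gene end, fold enrichment, and leaving out each library. Of 57 values under alternatives for 6 summary results, 39 stayed within 1.5 times the main count or within the spread between libraries. Of the 18 others, 15 came from leaving out 1 library. Gained regions then ranged from 20 to 77 and lost regions from 17 to 59. Shared regions ranking higher ranged from 35 to 45 and lower from 32 to 49. The median difference ranged from −0.55 to 0.88 points without 1 library, and open gene ends from 29 to 30 genes. The remaining values were 21 gained regions with summit windows, 19 open genes with the 5′ end only (22 genes have a strand) and a median of −1.99 points with fold enrichment; the cause of the last was not tested. Of the 12 gained and 12 lost regions, 8 and 8 were kept with −log10 q of 5 or more, 9 and 8 with lists of equal length, and 12 and 10 with summit windows. Weak sites near the lowest −log10 q of a list, and the unknown read depth, limit what absence of an interval shows.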
